A study of Mus musculus with 12 samples.

Results

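The genes described here encode 9 surface proteins that restrain T cells or, for CD200, other immune cells: Ctla4, Pdcd1, Lag3, Havcr2, Tigit, Cd200, Btla, Cd160 and Cd96. They were taken by gene name, 9 of the 47643 genes in the expression table, and each name matched 1 row. Coinhibitory receptors are induced or maintained when a T cell is activated, bind ligands on neighbouring cells and dampen signals from the T cell receptor or from CD28. CTLA-4 competes with the costimulatory receptor CD28 for CD80 and CD86, and PD-1 (Pdcd1) binds PD-L1 and PD-L2. TIGIT and CD96 compete with the costimulatory receptor CD226 for the poliovirus receptor CD155, BTLA and CD160 bind the TNF receptor family member HVEM, LAG-3 binds MHC class II, and TIM-3 (Havcr2) binds galectin-9 and CEACAM1. CD200 works as a ligand, whose receptor CD200R1 inhibits myeloid cells.

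Bulk RNA sequencing covered 4 groups of 3 libraries, 12 in all, from C57BL/6 mouse spleen cells labelled as naive CD4 T cells. All cells were cultured for 3 days on plate-bound antibodies to CD3 and CD28, each coated at 2 μg/ml. Tnfr2-/- cells (without TNF receptor 2, encoded by Tnfrsf1b) were given 20 ng/ml of TNF together with 2 ng/ml of TGF-β. Wild-type (WT) cells received the same TNF+TGF-β, or 20 ng/ml of IL-6 with that dose of TGF-β, or no added cytokine (Th0). The labels say that each condition was run in triplicate and do not say whether a triplicate came from separate mice or cultures, so the p-values reflect how far these libraries scatter, a scatter that could be technical. Neither a Tnfr2-/- Th0 group nor a group with TGF-β alone was analysed here, so effects of TNF or IL-6 cannot be told apart from those of TGF-β, and the genotype was compared under TNF+TGF-β only.

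Levels are given as FPKM, fragments scaled by transcript length and by library size. The depth of the libraries, estimated from the steps between low values, was 16600000 to 24000000 fragments, at which 3 fragments on a transcript of 1 kilobase correspond to 0.125 to 0.181 FPKM, a limit that covers counting error only. Tnfrsf1b was listed at 4.87, 3.71 and 3.19 FPKM in the Tnfr2-/- libraries, against 70.8 to 108 FPKM in WT libraries under TNF+TGF-β. Against the label of CD4 T cells, Cd8a and Cd8b1 both stood above Cd4 in 11 of the 12 libraries, the exception being the Tnfr2-/- library numbered 4. The summed level of 7 B cell markers (Cd79a, Cd79b, Ms4a1, Pax5, Blk, Cr2 and Cd22) was 1780 to 3980 FPKM in Tnfr2-/- libraries, against 242 to 304 in WT under TNF+TGF-β, 374 to 831 for the IL-6 pair and 667 to 1100 in Th0. The 2 CD8 markers summed to 29.5 to 78.9 FPKM in Tnfr2-/- libraries, against 307 to 358, 256 to 343 and 115 to 180 FPKM in the same order of WT groups. The leading principal component (32.1% of variance) set the Tnfr2-/- libraries at 42.73 to 79.22, and every WT library below 0. In such bulk samples, fewer cells of a type and less RNA per cell cannot be told apart.

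Every gene that reached 1 FPKM in 3 or more libraries was tested on log2(FPKM + 1) with limma, and a gene is called at an adjusted p under 0.05 over all 13082 tested genes. Of the 9 genes, 8 passed that filter and Havcr2 did not. Under TNF+TGF-β against Th0, 5 of the 8 were called, Cd96 higher and Cd200, Tigit, Btla and Lag3 lower, where 31.7% of all tested genes were called. Under IL-6+TGF-β against Th0, 5 of the 8 were called, Cd96 and Ctla4 higher and Cd200, Btla and Tigit lower, where 23.2% of all tested genes were called. Both comparisons use the same Th0 libraries. Between the cytokine pairs, taken as TNF+TGF-β minus IL-6+TGF-β, 4 of the 8 were called, Cd200 and Cd96 higher and Lag3 and Ctla4 lower, where 12.8% of all tested genes were called (7.31% higher, 5.5% lower). In Tnfr2-/- against WT cells under TNF+TGF-β, 3 of the 8 were called, Btla higher and Cd160 and Cd96 lower, close to the 37.4% of all tested genes called there. The median log2 difference of the 8 genes, beside that of all tested genes, was −0.63 beside 0.07 for TNF+TGF-β against Th0, −0.14 beside 0.04 for IL-6+TGF-β against Th0, 0.35 beside 0.0 between the cytokine pairs and 0.19 beside 0.0 between the genotypes. Pdcd1 was the gene among the 8 that was called in none of these comparisons.

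**Figure D1:**
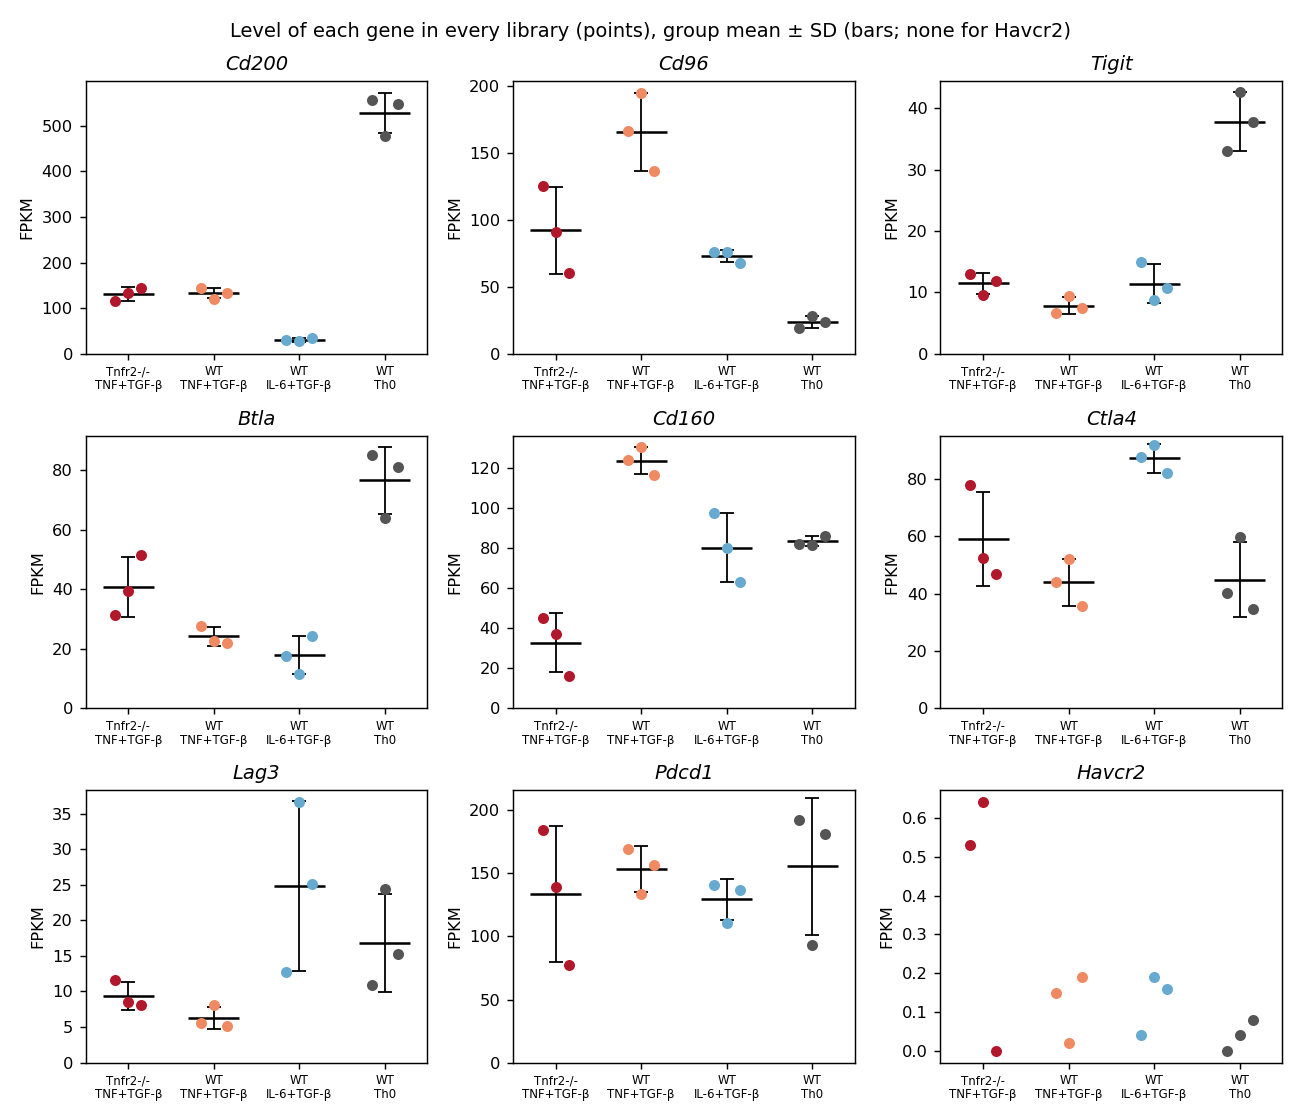
Level of each of the 9 genes in FPKM (vertical axes, each from 0 or just below) in every library (points), by group from Tnfr2-/- under TNF+TGF-β at the left to WT Th0 at the right, with the group mean and SD (black bars, n = 3, none for Havcr2). Cd200 stood at 26.9 to 34.8 FPKM in the IL-6+TGF-β libraries and at 479 to 557 FPKM in the Th0 libraries, while Pdcd1 overlapped between all 4 groups.

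CD200 RNA had the widest range between group means of the 8 tested genes (4.073 in mean log2(FPKM + 1)). Under TNF+TGF-β against Th0, Cd96 (2.77) and Tigit (−2.14) changed more. Cd200 (ENSMUSG00000022661.14; GRCm38 chromosome 16, 45382135 to 45409053, minus strand; 11 annotated transcripts) was at 115, 132 and 144 FPKM in Tnfr2-/- libraries. It was at 144, 121 and 133 FPKM in WT libraries under TNF+TGF-β, at 29.9, 26.9 and 34.8 FPKM under IL-6+TGF-β, and at 557, 479 and 549 FPKM in Th0. The Th0 libraries were all above the rest, the IL-6+TGF-β libraries all below, and the libraries under TNF+TGF-β of both genotypes lay together in between. Cd200 fell 3.98-fold under TNF+TGF-β against Th0 (log2 difference −1.98 ± 0.13 SE, adjusted p = 6.47e-07) and 17.3-fold under IL-6+TGF-β against Th0 (−4.07 ± 0.13, adjusted p = 2.82e-09). It was 4.35-fold higher under TNF+TGF-β than under IL-6+TGF-β (2.09 ± 0.13, adjusted p = 8.24e-07). Between Tnfr2-/- and WT cells the difference was −0.02, with a 95% interval of −0.31 to 0.26 (adjusted p = 0.902). Of the 7 B cell markers, 6 were called lower under TNF+TGF-β against Th0 (median log2 difference −1.68) and 3 under IL-6+TGF-β against Th0 (median −0.74), as Cd200 was. Between the cytokine pairs 1 marker was called higher and 3 lower (median −1.21), and in Tnfr2-/- against WT cells all 7 were called higher (median 2.74). Over all tested genes, 13% were called lower under TNF+TGF-β and 9.15% under IL-6+TGF-β against Th0. Between the cytokine pairs 7.31% of all tested genes were called higher and 5.5% lower, and between the genotypes 19.9% higher. The part of B cell RNA in the Cd200 differences was not tested. By mean level Cd200 ranked at the 92.1st percentile of tested genes in WT cells under TNF+TGF-β and at the 68.4th under IL-6+TGF-β, against the 98.0th in Th0 cells.

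Because Cd200 was so high in Th0, it also set the total of the group. The 9 genes, Havcr2 included, summed to 605, 509.7 and 417 FPKM in Tnfr2-/- libraries, 688, 672 and 613 FPKM in WT under TNF+TGF-β, 477, 442.5 and 444 FPKM under IL-6+TGF-β, and 1020, 872 and 1008 FPKM in Th0. Cd200 made up 19.1 to 34.7% of that sum in Tnfr2-/- libraries, 18.0 to 21.7% in WT under TNF+TGF-β, 6.07 to 7.84% under IL-6+TGF-β and 54.4 to 54.9% in Th0. The largest share of the mean sum belonged to Pdcd1 in Tnfr2-/- cells (26.2%, next to Cd200 at 25.6%) and under IL-6+TGF-β (28.5%), and to Cd96 in WT cells under TNF+TGF-β (25.2%).

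**Figure D2:**
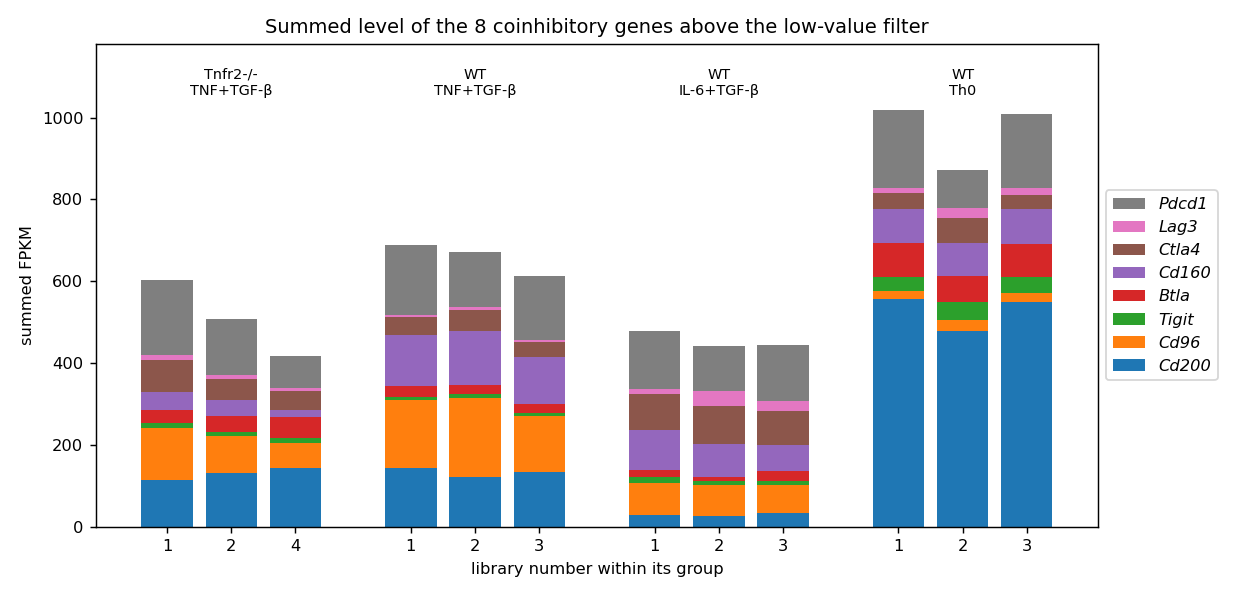
Summed FPKM of the 8 coinhibitory genes that passed the low-value filter (vertical axis, from 0) in each library (bars, numbered as in the table's columns), by group, with the part of each gene in colour. The Th0 bars reach 872 to 1020 FPKM with Cd200 (blue) as the largest part, and Cd96 (orange) is broadest in WT under TNF+TGF-β.

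Of the receptors that bind CD155, Tigit fell and Cd96 rose under both cytokine pairs in WT cells. Tigit (ENSMUSG00000071552.4; chromosome 16, 43648867 to 43664146, minus strand) was at 12.96, 9.61 and 11.9 FPKM in Tnfr2-/- libraries. It was at 6.67, 9.35 and 7.43 FPKM in WT under TNF+TGF-β, 14.9, 8.67 and 10.7 FPKM under IL-6+TGF-β, and 33.1, 42.6 and 37.8 FPKM in Th0. Each cytokine-treated library was below each Th0 library. Tigit fell 4.84-fold under TNF+TGF-β (−2.14 ± 0.20, adjusted p = 9.65e-06) and 3.31-fold under IL-6+TGF-β (−1.67 ± 0.20, adjusted p = 7.26e-05) against Th0. The Tnfr2-/- libraries were all above the WT libraries under TNF+TGF-β, but the difference of 0.50 ± 0.20 did not pass (adjusted p = 0.0656). It did pass when IL-6+TGF-β replicate 1 (adjusted p = 0.0301) or 2 (0.0489), or WT TNF+TGF-β replicate 2 (0.0495), was left out.

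Cd96 (ENSMUSG00000022657.9; chromosome 16, 46035657 to 46120251, minus strand) encodes a receptor of T and NK cells. Its values were 125, 90.7 and 60.65 FPKM in Tnfr2-/- libraries, against 167, 195 and 136 FPKM in WT under TNF+TGF-β, 76.0, 75.7 and 67.5 FPKM under IL-6+TGF-β and 19.1, 27.8 and 23.8 FPKM in Th0. WT libraries under TNF+TGF-β were above all others, and Th0 libraries below all others. Cd96 was 7.04-fold higher under TNF+TGF-β than in Th0 cells (2.77 ± 0.23, adjusted p = 4.06e-06), 3.1-fold higher under IL-6+TGF-β than in Th0 cells (1.61 ± 0.23, adjusted p = 0.000323) and 2.27-fold higher under TNF+TGF-β than under IL-6+TGF-β (1.16 ± 0.23, adjusted p = 0.00519). In Tnfr2-/- cells it was 1.8-fold lower than in WT (−0.89 ± 0.23, adjusted p = 0.011). Among the Tnfr2-/- libraries it was lowest in the library numbered 4, which also had the lowest summed CD8 markers, 29.5 FPKM against 71.6 and 78.9 in the other Tnfr2-/- libraries. The T cell genes Cd3e and Lck were lowest there too, with Cd3e at 453, 248 and 199 FPKM in libraries 1, 2 and 4. Lck was at 811, 656 and 449 FPKM in the same order. Both CD8 markers were called in the direction of Cd96 between the genotypes and under TNF+TGF-β against Th0, 1 of them under IL-6+TGF-β against Th0 and neither between the cytokine pairs. The 5 regulatory T cell markers (Foxp3, Ikzf2, Ikzf4, Il2ra and Nrp1) were also called in the direction of Cd96, all 5 between the genotypes, 5 under TNF+TGF-β and 3 under IL-6+TGF-β against Th0, and 2 between the cytokine pairs. They summed to 263, 143 and 107 FPKM in Tnfr2-/- libraries 1, 2 and 4. The sums were 412 to 461 FPKM in WT under TNF+TGF-β, 221 to 356 under IL-6+TGF-β and 65.0 to 120 in Th0. Over all tested genes, 17.5% were called lower between the genotypes. Called higher were 18.7% under TNF+TGF-β and 14.1% under IL-6+TGF-β against Th0, and 7.31% between the cytokine pairs. In Tnfr2-/- cells against Th0 both CD8 markers were called lower and 3 regulatory T cell markers higher, where Cd96 was higher (1.88, adjusted p = 6.97e-05). Against IL-6+TGF-β both CD8 markers were lower, 1 regulatory T cell marker was higher and 1 lower, and Cd96 was not called. The shares of all tested genes called were 48.1% and 38.5%. The part of either cell type in the Cd96 differences was not tested.

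Relative to each other these receptors changed place. The ratio of Cd96 to Tigit was 8.07 ± 2.58 in Tnfr2-/- libraries, 21.4 ± 3.34 in WT under TNF+TGF-β and 6.71 ± 1.85 under IL-6+TGF-β, against 0.62 ± 0.0383 in Th0 (SD, n = 3 each). Cd226, the costimulatory receptor for the same ligand, averaged 14.2 ± 3.13 FPKM in Tnfr2-/- cells, 41.5 ± 4.74 in WT under TNF+TGF-β, 8.36 ± 1.66 under IL-6+TGF-β and 27.4 ± 1.31 in Th0. The ratio of Tigit to Cd226 was 0.823 ± 0.123 in Tnfr2-/- libraries and 0.192 ± 0.055 in WT under TNF+TGF-β, against 1.35 ± 0.109 under IL-6+TGF-β and 1.38 ± 0.194 in Th0. In the sense of these ratios of FPKM, the balance of TIGIT to CD226 RNA was lowest in WT cells under TNF+TGF-β, where no library overlapped another group. Pvr, which encodes CD155 and was not chosen by the rule for named genes, averaged 6.59 to 9.79 FPKM over the 4 groups.

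The HVEM-binding receptors Btla and Cd160 parted as well. Btla (ENSMUSG00000052013.14; chromosome 16, 45224315 to 45257670, plus strand), a receptor of both T and B cells, was at 31.4, 39.5 and 51.4 FPKM in Tnfr2-/- libraries. It was at 27.7, 22.7 and 21.9 FPKM in WT under TNF+TGF-β, 17.7, 11.6 and 24.2 FPKM under IL-6+TGF-β, and 85.0, 63.8 and 80.9 FPKM in Th0. Th0 libraries were above all others, and the Tnfr2-/- libraries were above every WT library with added cytokines. Btla fell 3.18-fold under TNF+TGF-β (−1.62 ± 0.24, adjusted p = 0.000394) and 4.29-fold under IL-6+TGF-β (−2.09 ± 0.24, adjusted p = 6.17e-05) against Th0. It was 1.69-fold higher in Tnfr2-/- than in WT cells under TNF+TGF-β (0.71 ± 0.24, adjusted p = 0.0374). That call is marginal: it was lost without any of the 3 WT TNF+TGF-β libraries (adjusted p = 0.0507, 0.0936 and 0.109 without replicates 1, 2 and 3), without the Tnfr2-/- library 2 (0.0828) and without the Tnfr2-/- library numbered 4 (0.142). It was also lost after rescaling to TPM (adjusted p = 0.0711), after median-ratio scaling (0.0567) and with no filter on low values (0.0744). Against Th0, 6 of the 7 B cell markers were called lower with Btla under TNF+TGF-β and 3 under IL-6+TGF-β. All 7 were called higher between the genotypes, and among the Tnfr2-/- libraries Btla and the summed B cell markers had the same order, with 1780, 3250 and 3980 FPKM of markers beside 31.4, 39.5 and 51.4 FPKM of Btla. Over all tested genes, 13% were called lower under TNF+TGF-β and 9.15% under IL-6+TGF-β against Th0, and 19.9% higher between the genotypes. Between the cytokine pairs 1 marker was called higher and 3 lower (median −1.21), and Btla was not called (0.46, adjusted p = 0.271). In Tnfr2-/- cells against Th0, 6 were called higher (median 1.63) and Btla lower (−0.91, adjusted p = 0.00901). Against IL-6+TGF-β all 7 and Btla (1.18, adjusted p = 0.00283) were called higher. The shares of all tested genes called were 12.8%, 48.1% and 38.5% in this order. The part of B cell RNA in these Btla differences was not tested.

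Cd160 (ENSMUSG00000038304.14; chromosome 3, 96798763 to 96829351, minus strand) encodes a receptor known from NK and CD8 T cells. It stood at 45.0, 36.95 and 16.15 FPKM in Tnfr2-/- libraries, against 124, 130.2 and 117 FPKM in WT under TNF+TGF-β, 97.5, 79.9 and 63.0 FPKM under IL-6+TGF-β and 82.1, 81.4 and 86.0 FPKM in Th0. The Tnfr2-/- libraries were below all WT libraries, and the WT libraries under TNF+TGF-β above all others. Cd160 was 3.78-fold lower in Tnfr2-/- than in WT cells (−2.00 ± 0.29, adjusted p = 0.000264), the largest difference of the 8 genes between the genotypes. In WT cells it was 1.48-fold higher under TNF+TGF-β than in Th0, a difference of 0.56 with a 95% interval of −0.07 to 1.19 that did not pass (adjusted p = 0.158), and 1.54-fold higher than under IL-6+TGF-β (0.64, adjusted p = 0.194). Both passed once the Tnfr2-/- library numbered 4 was left out of the shared estimate of spread (adjusted p = 0.0143 and 0.0144). Cd8a, the CD8 chain gene, averaged 21.8 ± 11.5 FPKM in Tnfr2-/- cells and 173 ± 22.1 in WT cells under TNF+TGF-β (SD, n = 3 each). Both CD8 markers were called lower in Tnfr2-/- cells than in WT cells under TNF+TGF-β, beside 17.5% of all tested genes. In Tnfr2-/- cells against Th0 and IL-6+TGF-β both and Cd160 were also called lower, where 48.1% and 38.5% of all tested genes were called. Under TNF+TGF-β against Th0 both were called higher and Cd160 was not. Under IL-6+TGF-β against Th0, 1 was higher and Cd160 was not called (−0.07, adjusted p = 0.889). The shares of all tested genes called higher were 18.7% and 14.1%. Neither marker was called between the cytokine pairs. The 6 NK cell markers summed to 74.1 to 196 FPKM in Tnfr2-/- libraries, against 22.8 to 37.5 in WT under TNF+TGF-β, 21.0 to 32.6 under IL-6+TGF-β and 41.6 to 57.8 in Th0. Most of that sum was Tyrobp and Fcer1g, which myeloid cells also express and which were both called higher in Tnfr2-/- than in WT cells. Of the other 4, Klre1 was at 2.48 FPKM or less in every library, and the defining markers Ncr1, Klrb1c and Klra8, below the filter, at 0.63 FPKM or less. The part of CD8 T cells and NK cells in the Cd160 differences was not tested. The ratio of Btla to Cd160 was 0.698 to 3.18 over the Tnfr2-/- libraries, against 0.174 to 0.224 in WT under TNF+TGF-β, 0.145 to 0.385 under IL-6+TGF-β and 0.783 to 1.04 in Th0.

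**Figure D3:**
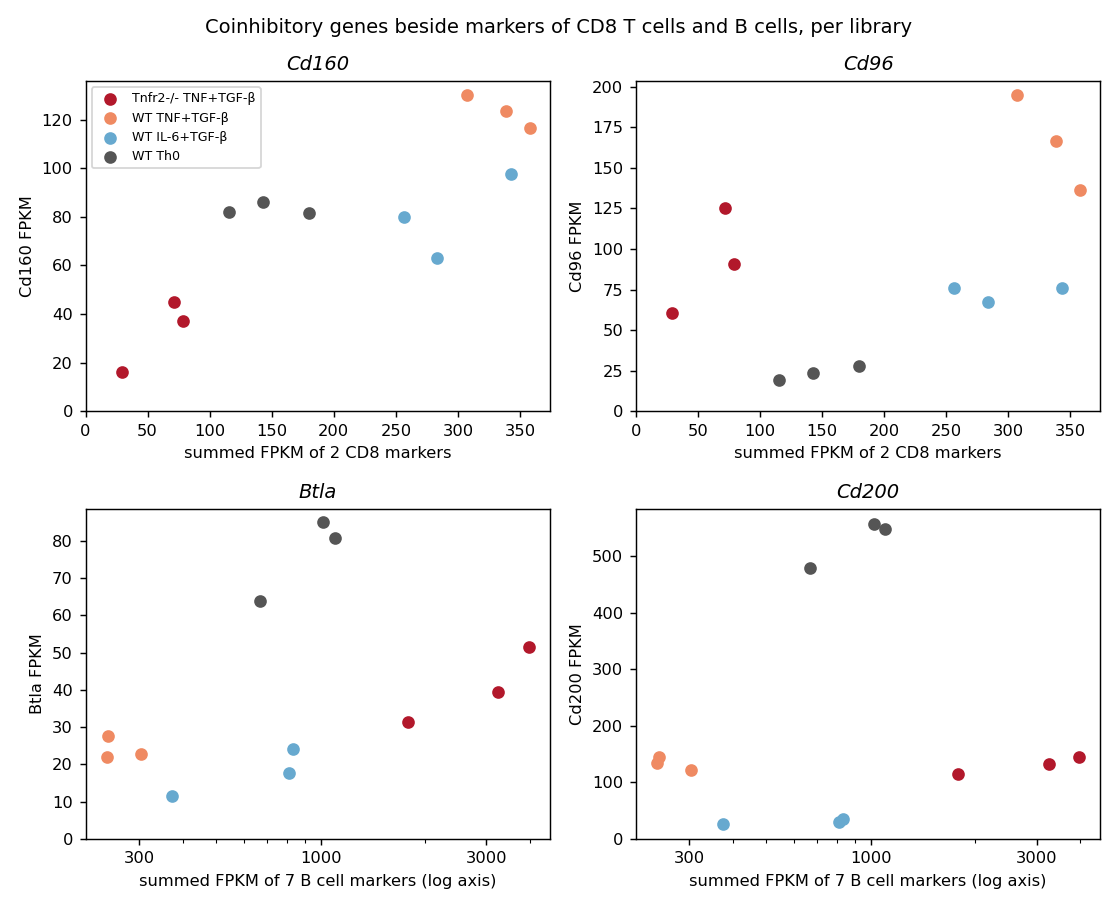
FPKM of Cd160 and Cd96 (vertical axes, top) against the summed FPKM of the CD8 markers Cd8a and Cd8b1, and of Btla and Cd200 (bottom) against the summed FPKM of 7 B cell markers on a log axis, with 1 point per library coloured by group. The Tnfr2-/- libraries (dark red) lie at 29.5 to 78.9 FPKM of CD8 markers and at 1780 to 3980 FPKM of B cell markers, apart from all WT libraries.

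Ctla4 was the receptor gene that rose under IL-6+TGF-β and not detectably under TNF+TGF-β. Ctla4 (ENSMUSG00000026011.13; chromosome 1, 60887000 to 60915832, plus strand) was at 77.8, 52.5 and 46.9 FPKM in Tnfr2-/- libraries. It was at 44.0, 52.2 and 35.7 FPKM in WT under TNF+TGF-β, 87.7, 92.0 and 82.1 FPKM under IL-6+TGF-β, and 40.1, 59.7 and 34.7 FPKM in Th0. The IL-6+TGF-β libraries were above all others, which overlapped among themselves. Ctla4 was 1.95-fold higher under IL-6+TGF-β than in Th0 cells (0.98 ± 0.22, adjusted p = 0.00765) and 1.98-fold lower under TNF+TGF-β than under IL-6+TGF-β (−0.99 ± 0.22, adjusted p = 0.0112). Without WT TNF+TGF-β replicate 3 the call between the cytokine pairs was lost (adjusted p = 0.0542). Under TNF+TGF-β against Th0 the difference was −0.01, with a 95% interval of −0.50 to 0.48. Relative to Cd28, the costimulatory receptor for the same ligands, the ratio was 0.756 ± 0.145 in Tnfr2-/- libraries, 1.04 ± 0.212 in WT under TNF+TGF-β and 1.08 ± 0.111 under IL-6+TGF-β, against 0.471 ± 0.167 in Th0 (SD, n = 3 each). Under TNF+TGF-β that higher ratio came with a lower Cd28, 42.2 ± 3.39 FPKM against 96.4 ± 5.38 in Th0 (−1.17 ± 0.12, adjusted p = 1.69e-05).

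Pdcd1, the gene of PD-1 (ENSMUSG00000026285.7; chromosome 1, 94038305 to 94052553, minus strand), was at 185, 139 and 77.1 FPKM in Tnfr2-/- libraries, 170, 133 and 157 FPKM in WT under TNF+TGF-β, 141, 111 and 137 FPKM under IL-6+TGF-β, and 192, 93.5 and 181 FPKM in Th0. The 4 groups overlapped. The differences were 0.04 (95% interval −0.64 to 0.72) for TNF+TGF-β against Th0, −0.20 (−0.88 to 0.48) for IL-6+TGF-β against Th0, 0.24 (−0.44 to 0.92) between the cytokine pairs and −0.28 (−0.96 to 0.40) between the genotypes. Each interval includes changes of either sign. Its mean ranked between the 91.2nd and 93.4th percentile of tested genes in all 4 groups.

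Lag3, which encodes a receptor for MHC class II, was lowest under TNF+TGF-β. Lag3 (ENSMUSG00000030124.2; chromosome 6, 124904361 to 124911705, minus strand) was at 11.6, 8.45 and 8.10 FPKM in Tnfr2-/- libraries. It was at 5.54, 8.05 and 5.18 FPKM in WT under TNF+TGF-β, 12.8, 36.6 and 25.05 FPKM under IL-6+TGF-β, and 10.9, 24.4 and 15.3 FPKM in Th0. The WT libraries under TNF+TGF-β were below all others, and those under IL-6+TGF-β and of Th0 were widely spread. Lag3 was 3.97-fold lower under TNF+TGF-β than under IL-6+TGF-β (−1.74 ± 0.35, adjusted p = 0.00565) and 2.69-fold lower than in Th0 cells (−1.25 ± 0.35, adjusted p = 0.0183). The call against Th0 was lost without Th0 replicate 2 (adjusted p = 0.0678), without WT TNF+TGF-β replicate 1 (0.0601) or 3 (0.0572), and after rescaling to TPM (0.0507). Under IL-6+TGF-β against Th0 the difference was 0.49 (95% interval −0.28 to 1.25, adjusted p = 0.367), and between the genotypes 0.52 (−0.25 to 1.29, adjusted p = 0.265).

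Havcr2, the gene of TIM-3 (ENSMUSG00000020399.14; chromosome 11, 46454935 to 46481255, plus strand), was below 1 FPKM in every library. It was listed at 0.53, 0.64 and 0 FPKM in Tnfr2-/- libraries, 0.15, 0.02 and 0.19 FPKM in WT under TNF+TGF-β, 0.04, 0.19 and 0.16 FPKM under IL-6+TGF-β, and 0, 0.04 and 0.08 FPKM in Th0. At the estimated depths and a mean annotated transcript of 2626 bases, these values stand for about 23, 29 and 0 fragments in Tnfr2-/- libraries and for about 11 or fewer in each WT library. The gene did not pass the filter, so no difference was tested.

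**Figure D4:**
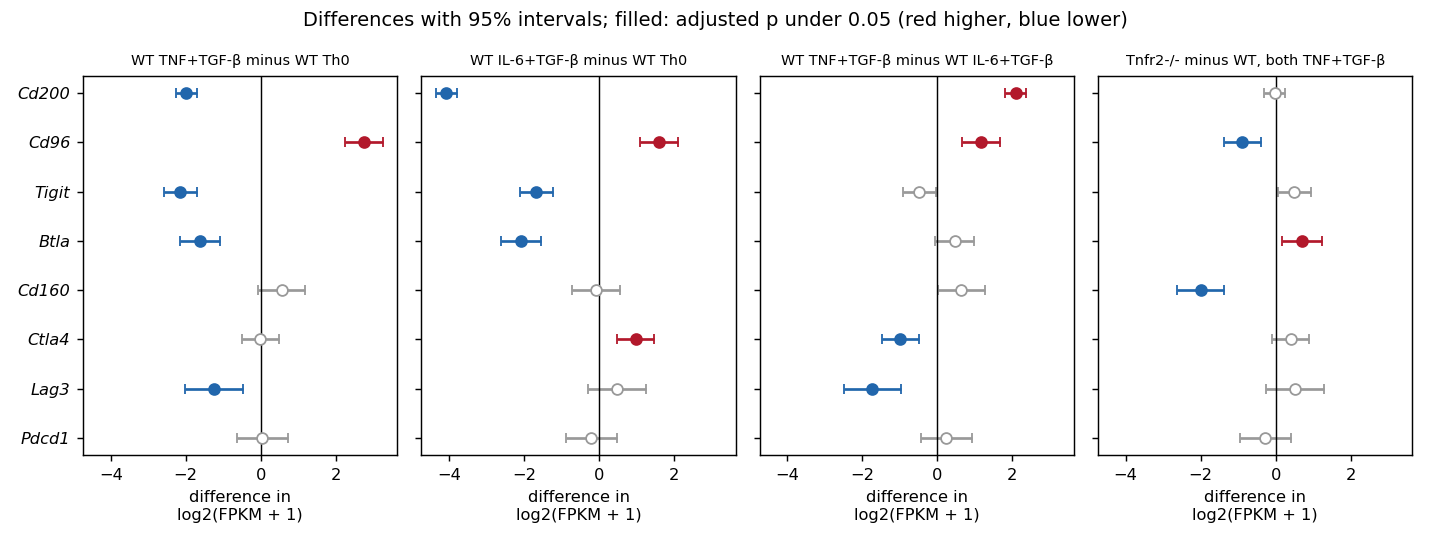
Differences in log2(FPKM + 1) between groups (horizontal axes, first-named group minus the other) for the 8 tested genes (rows), with 95% intervals, in 4 comparisons. Filled points passed an adjusted p of 0.05 (red higher, blue lower), and the Cd200 point for IL-6+TGF-β against Th0, at −4.07, is the farthest from 0.

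Ordered by mean level, the neighbouring groups that differed varied from gene to gene. For this order Tnfr2-/- cells under TNF+TGF-β were also compared with WT IL-6+TGF-β and Th0 cells, where genotype and cytokine differ together. Against Th0 5 of the 8 were called (48.1% of all tested genes) and against IL-6+TGF-β 4 of the 8 (38.5%). Cd200 fell into 3 steps, with Tnfr2-/- and WT cells under TNF+TGF-β not differing beyond their spread, below Th0 and above IL-6+TGF-β (for Tnfr2-/- cells 2.06 against IL-6+TGF-β, adjusted p = 1.12e-06). Tigit had 1 step, Th0 above the other 3 groups (for Tnfr2-/- cells −1.64 against Th0, adjusted p = 6.34e-05). Btla had Th0 highest, Tnfr2-/- cells next (−0.91 against Th0, adjusted p = 0.00901; 1.18 against IL-6+TGF-β, adjusted p = 0.00283), and both WT cytokine groups lowest without a difference between them (0.46, adjusted p = 0.271). Cd160 had Tnfr2-/- cells lowest (−1.36 against IL-6+TGF-β, adjusted p = 0.00322; −1.44 against Th0, adjusted p = 0.00168) and no called step among the WT groups. Cd96 had WT under TNF+TGF-β highest and Th0 lowest (for Tnfr2-/- cells 1.88 against Th0, adjusted p = 6.97e-05), and Tnfr2-/- cells did not differ from IL-6+TGF-β beyond the spread (0.27, adjusted p = 0.38). For Ctla4, the Tnfr2-/- libraries were all below those under IL-6+TGF-β but the step did not pass (−0.59, adjusted p = 0.0569). It passed without Th0 replicate 2 (adjusted p = 0.0332), without the Tnfr2-/- library 1 (0.0137) and after median-ratio scaling (0.0261). Lag3 was lower in Tnfr2-/- cells than under IL-6+TGF-β (−1.21, adjusted p = 0.0177), a call lost without IL-6+TGF-β replicate 2 (0.0716) or 3 (0.0534) and without the Tnfr2-/- library 2 (0.0548) or that numbered 4 (0.0583).

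Tigit, Btla, Cd200 and Cd96 lie within 2.47 Mb of chromosome 16 (43648867 to 46120251). Btla and Cd200 are 124.5 kb apart, Cd200 and Cd96 626.6 kb, and Tigit and Btla 1.56 Mb. The stretch held 16 other tested genes. Under TNF+TGF-β against Th0, 2 of the 16 were called higher and 3 lower, where 18.7% and 13% of all tested genes were called higher and lower. Under IL-6+TGF-β against Th0 it was 1 higher and 4 lower, beside 14.1% and 9.15% of all tested genes. The differences of the called neighbours ran from −0.79 to 0.58, smaller than those of the 4 coinhibitory genes in those comparisons. Between the genotypes 5 of the 16 were higher and 4 lower, beside 19.9% and 17.5% of all tested genes. There the called neighbours ran from −1.08 to 1.72, a wider range than the −0.89 to 0.71 of the 4 coinhibitory genes. Cd200r1, the gene of the CD200 receptor, lies in the same stretch and averaged 1.16 to 2.56 FPKM over the 4 groups.

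**Figure D5:**
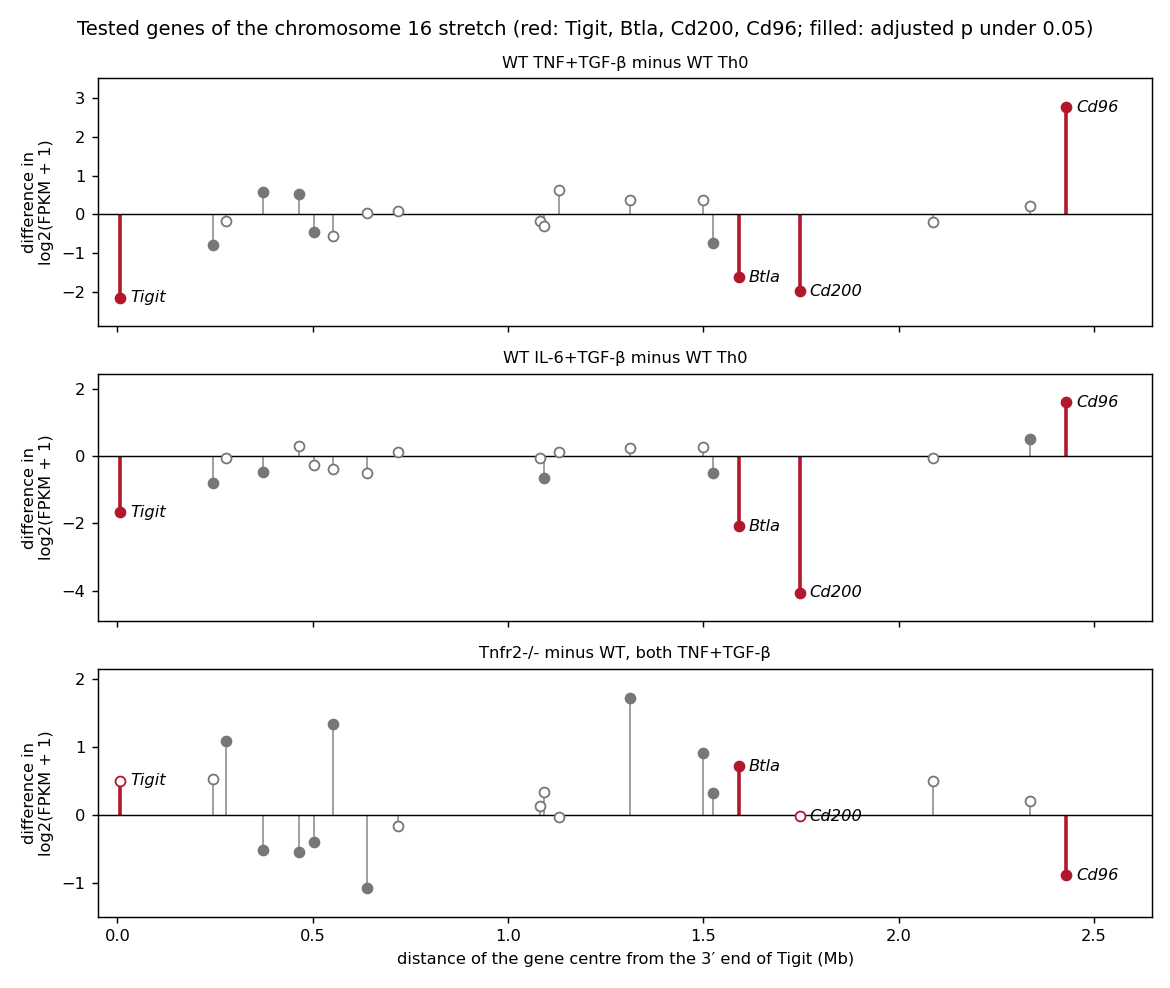
Difference in log2(FPKM + 1) (vertical axes) of the 20 tested genes in the chromosome 16 stretch against the distance of each gene's centre from the 3′ end of Tigit in Mb (horizontal axis), for 3 comparisons. Red marks the 4 coinhibitory genes and filled points an adjusted p under 0.05; against Th0, Tigit, Btla and Cd200 point down and Cd96 up beside neighbours near 0.

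The promoters of these 4 genes are shown because they sit in 1 stretch and moved by different amounts and, for Cd96, in the other direction. Each is the 250 bases before the RefSeq start of the gene on GRCm38.p6, written 5′ to 3′ on the strand of the gene: Tigit at chr16:43664185-43664434 (minus), Btla at chr16:45224087-45224336 (plus), Cd200 at chr16:45409054-45409303 (minus) and Cd96 at chr16:46120249-46120498 (minus). Capitals mark matches to the motifs named after the sequences.
Tigit: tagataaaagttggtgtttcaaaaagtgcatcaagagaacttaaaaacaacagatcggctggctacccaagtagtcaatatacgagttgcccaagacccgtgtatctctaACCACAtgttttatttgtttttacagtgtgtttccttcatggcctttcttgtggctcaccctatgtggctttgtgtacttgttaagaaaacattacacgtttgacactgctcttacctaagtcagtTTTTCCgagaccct
Btla: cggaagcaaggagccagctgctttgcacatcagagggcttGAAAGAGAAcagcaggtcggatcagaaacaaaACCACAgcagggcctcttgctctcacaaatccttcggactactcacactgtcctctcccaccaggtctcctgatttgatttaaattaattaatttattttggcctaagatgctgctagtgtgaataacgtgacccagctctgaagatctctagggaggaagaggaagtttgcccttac
Cd200: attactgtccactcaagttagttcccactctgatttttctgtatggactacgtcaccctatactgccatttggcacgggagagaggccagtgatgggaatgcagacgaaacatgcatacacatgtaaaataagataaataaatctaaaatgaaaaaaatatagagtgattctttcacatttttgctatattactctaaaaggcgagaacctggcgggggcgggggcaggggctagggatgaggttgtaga
Cd96: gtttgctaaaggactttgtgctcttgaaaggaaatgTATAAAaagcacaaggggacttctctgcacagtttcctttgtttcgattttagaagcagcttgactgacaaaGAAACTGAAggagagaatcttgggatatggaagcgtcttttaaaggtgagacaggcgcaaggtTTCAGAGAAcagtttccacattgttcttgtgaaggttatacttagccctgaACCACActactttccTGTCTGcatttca
Searched on both strands were RUNX (TGTGGT), the NFAT core (GGAAAA), SMAD (CAGACA), STAT (TTCNNNGAA), the TATA box as the letters TATAAA, AP-1 (TGANTCA), T-box (GGTGTGA), ETS (CCGGAA), ISRE (GAAANNGAA) and kappaB (GGGANTTTC). Tigit, Btla and Cd96 each had the RUNX letters, which 14.0% of 32851 RefSeq promoters of that length hold, and Tigit also had the NFAT core (20.4% of promoters) 14 bases before its start. Btla and Cd96 had the ISRE letters (7.1%). Cd96 also had the SMAD (17.1%), STAT (7.0%) and TATA (12.4%) letters. None of the 10 motifs was found in the Cd200 window. RefSeq promoters were matched for 8 of the 9 genes, of which 5 held the RUNX letters, 3 SMAD, 3 ISRE, 2 the NFAT core, 2 STAT, and 1 each AP-1 (6.7% of promoters), T-box (3.3%) and TATA, while ETS (12%) and kappaB (0.9%) were found in none. No match in the windows printed shares a base with another. A match is a description of letters and shows no binding.

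Ligands and counter-receptors of the 9 were measured in the same libraries, 12 of 15 above the filter (Fgl1, Nectin1 and Nectin2 were not). Of all tested genes, 31.7% were called under TNF+TGF-β and 23.2% under IL-6+TGF-β against Th0, 12.8% between the cytokine pairs and 37.4% between the genotypes. Under TNF+TGF-β against Th0, 3 of the 12 were higher and 1 lower, close to that share, with a median log2 difference of 0.37 beside 0.07 for all tested genes. Lgals3, whose product galectin-3 can bind LAG-3, was 15.4-fold higher (560 ± 68.3 against 36.2 ± 3.04 FPKM, adjusted p = 5.68e-05). Tnfsf14, the gene of LIGHT, which binds HVEM, was 4.09-fold higher (18.3 ± 0.247 against 4.49 ± 0.539 FPKM, adjusted p = 1.1e-05), and Cd86, a ligand of CTLA-4 and CD28, was 4.14-fold lower (2.76 ± 0.263 against 11.4 ± 1.49 FPKM, adjusted p = 2.36e-05). With Cd86, 6 of the 7 B cell markers were called lower there (median −1.68), beside 13% of all tested genes. Of 7 tested myeloid and dendritic cell markers, 1 was called higher and 1 lower. The part of these cells in the fall of Cd86 was not tested. Under IL-6+TGF-β against Th0, 3 were higher and 3 lower (median −0.09 beside 0.04), with Lgals3 14.7-fold higher and Pdcd1lg2, the gene of PD-L2, 3.33-fold lower (adjusted p = 0.000262). Between the cytokine pairs 3 were higher and none lower (median 0.43 beside 0.0). Both ligand genes of PD-1 were higher under TNF+TGF-β, Cd274, the gene of PD-L1, at 15.5 ± 1.17 against 3.19 ± 1.23 FPKM (adjusted p = 0.000815) and Pdcd1lg2 at 36.4 ± 5.81 FPKM, 3.64-fold (adjusted p = 0.000219), while Pdcd1 itself was not called there. In Tnfr2-/- against WT cells, 2 of the 12 were higher and 6 lower (median −0.37 beside 0.0). Tnfsf14 was 5.07-fold lower (3.61 ± 0.816 against 18.3 ± 0.247 FPKM, adjusted p = 8.07e-06), Lgals3 3.85-fold lower (adjusted p = 0.00284) and Cd86, which B cells and myeloid cells also express, 4.56-fold higher (12.6 ± 1.7 against 2.76 ± 0.263 FPKM, adjusted p = 1.92e-05). The 8 myeloid and dendritic cell markers summed to 204 to 1430 FPKM in Tnfr2-/- libraries, against 88.4 to 170 in WT under TNF+TGF-β, with 4 of the 7 tested called higher and 1 lower. None of the 8 was at 0 in all libraries of either group, and the part of myeloid and B cells in the Cd86 difference was not tested.

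All 10 costimulatory receptor genes were tested. The share of all tested genes called was 31.7% for TNF+TGF-β and 23.2% for IL-6+TGF-β against Th0. It was 12.8% between the cytokine pairs and 37.4% between the genotypes. Under TNF+TGF-β against Th0, 1 was higher and 4 lower (median −0.02 beside 0.07), the largest falls being those of Slamf6 (2.59-fold), Slamf1 (2.31-fold) and Cd28 (2.28-fold). Under IL-6+TGF-β, 1 was higher and 5 lower, with a median of −0.80 beside 0.04, led by Slamf6 (3.22-fold lower), Cd226 (3.28-fold) and Tnfrsf18, the gene of GITR (2.94-fold). Between the cytokine pairs 4 were higher and 1 lower (median 0.26 beside 0.0), with Cd226 4.97-fold, Tnfrsf18 4.03-fold and Tnfrsf4, the gene of OX40, 2.44-fold higher under TNF+TGF-β. In Tnfr2-/- against WT cells 3 were higher and 5 lower (median −0.45 beside 0.0), with Tnfrsf18 3.31-fold, Cd226 2.93-fold and Tnfrsf9, the gene of 4-1BB, 2.4-fold lower. Adjusted p-values of these named genes ran from 4.68e-06 to 0.00152.

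Among 12 other inhibitory surface receptor genes, 10 were tested (Cd300a and Klrg1 were below the filter). Cd101, the gene of a surface protein of regulatory and memory T cells, was 44.3-fold higher under TNF+TGF-β than in Th0 cells (50.3 ± 6.52 against 1.14 ± 0.392 FPKM, adjusted p = 2.18e-06) and 45.1-fold higher under IL-6+TGF-β (51.3 ± 14.2 FPKM, adjusted p = 2.39e-06). Nt5e, the gene of the ectoenzyme CD73, was 4.81-fold and 6.27-fold higher in the same comparisons. In all, 3 rose and 1 fell under TNF+TGF-β against Th0 (median 0.04 beside 0.07), 2 rose and 3 fell under IL-6+TGF-β against Th0 (−0.31 beside 0.04), and 2 were higher and 1 lower between the cytokine pairs (0.36 beside 0.0). Over all tested genes, 31.7%, 23.2% and 12.8% were called in these comparisons, and 37.4% between the genotypes. In Tnfr2-/- against WT cells 5 were higher and 3 lower (0.55 beside 0.0), with Cd72, a receptor gene of B cells, 3.88-fold and Entpd1 7.28-fold higher and Lair1 3.93-fold lower. Entpd1 was at 7.13 ± 3.21 against 0.98 ± 0.413 FPKM, so its ratio rests on a WT mean under 1 FPKM. The B cell markers named above moved in the direction of Cd72 and Entpd1, and their part was not tested.

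Of 13 genes of signal and trafficking partners, 3 were higher and 1 lower under TNF+TGF-β against Th0, 3 higher and 2 lower under IL-6+TGF-β, 1 higher between the cytokine pairs, and 3 higher and 2 lower in Tnfr2-/- against WT cells. Their medians were 0.38, 0.06, 0.25 and −0.06 in that order, beside 0.07, 0.04, 0.0 and 0.0 for all tested genes. Called among all tested genes were 31.7%, 23.2%, 12.8% and 37.4% in the same order. The counts for TNF+TGF-β against Th0 and between the genotypes are close to these shares. Ptpn6, the gene of the phosphatase SHP-1 that several of these receptors recruit, was 1.59-fold lower under TNF+TGF-β (adjusted p = 0.000877) and 1.98-fold lower under IL-6+TGF-β (adjusted p = 4.68e-05) than in Th0. Inpp5d, the gene of the lipid phosphatase SHIP-1, was 1.91-fold higher under TNF+TGF-β than in Th0 cells (adjusted p = 0.0015) and 1.98-fold higher in Tnfr2-/- than in WT cells (adjusted p = 0.000758). Larger between the genotypes were the falls of Dok2 (2.66-fold lower in Tnfr2-/- cells, adjusted p = 0.0041) and Sh2d1a (2.04-fold lower, adjusted p = 0.0329). Adam10, whose protease sheds LAG-3 from the surface, was 1.49-fold higher under TNF+TGF-β than in Th0 cells (adjusted p = 0.00504), and Adam17, which does so too, was 1.46-fold higher under TNF+TGF-β than under IL-6+TGF-β (adjusted p = 0.0362).

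Of 18 transcription factor genes tied in the literature to coinhibitory receptor expression, 8 were higher and 2 lower under TNF+TGF-β against Th0, and 8 higher and 5 lower under IL-6+TGF-β (medians 0.56 beside 0.07 and 0.13 beside 0.04). Between the cytokine pairs 4 were higher and 2 lower (−0.09 beside 0.0). Over all tested genes, 31.7%, 23.2% and 12.8% were called in these comparisons, and 37.4% between the genotypes. Maf, which encodes c-Maf, was 14.0-fold higher under TNF+TGF-β (13.8 ± 1.15 against 0.99 ± 0.44 FPKM, adjusted p = 1.59e-06) and 34.9-fold higher under IL-6+TGF-β (34.6 ± 5.9 FPKM, adjusted p = 9.33e-08), and the 2.5-fold difference between the pairs passed (adjusted p = 0.00198). Foxp3, the regulatory T cell factor, rose in both (23.2-fold and 12.5-fold). Ikzf2, the gene of Helios, was 14.0-fold higher under TNF+TGF-β than under IL-6+TGF-β (adjusted p = 2.28e-06). In Tnfr2-/- against WT cells 2 were higher and 7 lower (−0.31 beside 0.0), led by Ikzf2 (8.25-fold lower, adjusted p = 9.86e-06), Tbx21, the gene of T-bet (7.86-fold lower, 1.04 ± 0.554 against 8.18 ± 2.36 FPKM, adjusted p = 5.37e-05), and Nr4a3 (4.15-fold lower, adjusted p = 0.00104).

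For Cd200, Cd96 and Tigit, which had the largest ranges between group means, the genes of the most similar pattern were looked up by Pearson correlation of log2(FPKM + 1) over the 12 libraries. The libraries share their groups, so these values describe a likeness of group patterns. Nearest to Cd200 were Ccdc28b (0.964), Inpp1 (0.961) and Glipr1 (0.961). Glipr1 averaged 30.8 ± 3.99 FPKM in Tnfr2-/- cells, 43.0 ± 7.11 in WT under TNF+TGF-β, 15.0 ± 4.78 under IL-6+TGF-β and 92.9 ± 1.77 in Th0 (SD, n = 3 each). Nearest to Cd96 were Axl (0.986), Cx3cr1 (0.985) and Ninj1 (0.983), with Axl at 60.8 ± 26.9, 198 ± 35.9, 36.5 ± 8.11 and 5.37 ± 0.692 FPKM in the same order of groups. Nearest to Tigit were Irgm1 (0.961), Ly6c2 (0.956) and Scrn2 (0.955), and Irgm1 was at 83.8 ± 13.9, 64.2 ± 1.5, 72.7 ± 6.98 and 317 ± 32.9 FPKM.

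Reads of overlapping genes could not be told apart, because the library kit does not mark the strand. Cd160 shares 68 exon bases with Pdzk1 on the opposite strand, which was at 0.75 FPKM or less in every library. The span of Ctla4 holds the pseudogene Rpl18-ps1, which shares none of its exon bases.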

How the data were processed

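RNA of 12 libraries was sequenced after cDNA synthesis by a SMARTer ultra low input kit, followed by Nextera XT library preparation, per the labels' protocols. Trimmomatic, STAR 2.5.4 and RSEM 1.3.1 were used by the authors with the mouse genome mm10, per the submitters' processing notes, and the annotation and the Trimmomatic version are not given in the sources used here. The deposited table holds 1 gene-level RSEM value per library, per the file headers. These were read as FPKM made by the authors, because column sums differed (689045 to 828161) while FPKM multiplied by transcript length in kilobases summed to 900467 to 1010096. The Tnfr2-/- columns are numbered 1, 2 and 4, so the column numbered 4 was tied to its group and not to a single sample. Coordinates are those of GENCODE M21 (GRCm38), which holds 47224 (99.1%) of the table's identifiers.

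From these values, genes that reached 1 FPKM in 3 or more libraries (13082) were taken as log2(FPKM + 1) into 1 limma fit (version 3.58.1, R 4.3.3) of group means over the 12 libraries, with a mean-dependent variance prior and no covariate. The Benjamini-Hochberg adjustment ran over all tested genes, separately for 6 comparisons. Fold changes are ratios of mean FPKM, while log2 differences are on the log2(FPKM + 1) scale, on which changes of low genes come out smaller. Depth, not given in the sources used here, was taken from the step size of low FPKM values of 8697 genes with 1 transcript of 800 to 3000 bases, after subtracting 300 bases, and between 65.9% and 83.4% of the values used lay within 0.2 of a whole number of fragments, so the estimates are approximate and no count test was run. The fit was tested on simulated data in which 200 of 13082 genes were changed by known amounts. It called 68% of the genes changed by a log2 difference of 1 and 96% of those changed by 2. Of 170 calls, 6 were false. Far fewer genes changed there than were called here, so these shares may not hold for the data.

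The genes, lists and tests were chosen with earlier results of these data known. Named from each list are up to 3 called genes per comparison by size of difference, and for the likeness of patterns the 3 genes with the highest correlation among those with a mean of at least 10 FPKM in their highest group. Ratios were taken between receptors that share a ligand. Genes named outside these rules (Pvr, Cd200r1 and the marker genes) were chosen after their values were seen. Alternatives were 2 other pseudocounts, no filter, TPM and median-ratio scaling, only the groups compared, a replicate block, a constant variance prior, and leaving out each of the 12 libraries in turn. Replicate numbers were not taken as pairs in the main fit. Of 15 same-numbered pairs of libraries, 5 deviated from their group means with a correlation over 0.1 (range −0.296 to 0.344). Only 2 Tnfr2-/- libraries entered this check, so their deviations mirror each other and pairs with them cannot show a pairing. Between WT libraries alone, same-numbered pairs ran from −0.029 to 0.344, so a pairing of the WT libraries by number is not excluded. One marker gene is not reported here and was left out of the marker sums.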

Additional observations from a re-analysis of the deposited data

How the results depend on the processing

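Of 960 values of the 8 genes under an alternative, 906 kept their direction and their side of the threshold, 18 lost a call, 13 gained one and 23 changed sign, each of these uncalled before and after. The cause of these changes was not tested. Calls of Cd200, Tigit and Cd96 against Th0 and of Cd160 between the genotypes held under each alternative run. Without 1 library at a time, 4 to 6 of the 8 genes were called for TNF+TGF-β against Th0, 5 each time for IL-6+TGF-β against Th0, 3 to 5 between the cytokine pairs and 2 to 4 between the genotypes.

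Over all tested genes, leaving out 1 library gave 2726 to 4902 calls for TNF+TGF-β against Th0 (4145 with all; 2726 without WT TNF+TGF-β replicate 2) and 1044 to 1915 between the cytokine pairs (1675 with all; 1044 without WT TNF+TGF-β replicate 1). With a replicate block, in a fit that drops the Tnfr2-/- library numbered 4, the genotypes gave 3247 calls instead of 4898, and Btla lost its call (adjusted p = 0.115) while Cd160 was called with TNF+TGF-β against Th0 (0.0171) and against IL-6+TGF-β (0.0186). Of 11 libraries, 5 correlated best with their own number, a count that includes the Tnfr2-/- libraries 1 and 2, whose deviations mirror each other by construction. With only the groups compared, Tnfr2-/- against IL-6+TGF-β gave 3328 calls instead of 5038, and Cd160 was called with TNF+TGF-β against Th0 (0.0018).

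Differences that changed sign were 0.17 after TPM scaling for Ctla4 and −0.06 after median-ratio scaling for Pdcd1 (TNF+TGF-β against Th0), 0.03 after TPM scaling for Cd160 (IL-6+TGF-β against Th0), and −0.02 (TPM), −0.04 (median-ratio) and −0.02 (replicate block) for Tigit (Tnfr2-/- against IL-6+TGF-β). With the replicate block Pdcd1 was at 0.14, 0.18 and 0.38 in Tnfr2-/- cells against WT TNF+TGF-β, Th0 and IL-6+TGF-β. Leaving out 1 library gave −0.17 to 0.21 for Ctla4 and −0.29 to 0.23 for Pdcd1 (TNF+TGF-β against Th0), −0.23 to 0.09 for Cd160 (IL-6+TGF-β against Th0), −0.55 to 0.07 for Pdcd1 and −0.10 to 0.06 for Cd200 (genotypes), −0.57 to 0.11 for Pdcd1 (Tnfr2-/- against Th0), and −0.31 to 0.31 for Pdcd1 and −0.14 to 0.22 for Tigit (Tnfr2-/- against IL-6+TGF-β). TPM scaling moved the median difference of all genes to 0.223 from 0.068 (TNF+TGF-β against Th0) and to −0.109 from 0.002 (genotypes), where 2103 genes were then higher and 2850 lower, against 2608 and 2290 unscaled. Depth limits Havcr2, estimated at 29 fragments or fewer in each library.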
